A study of Mus musculus with 7 samples.

Results

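Genes induced by interferon were followed in CD4+ cells sorted by flow cytometry from the spleens of C57BL/6 mice. The tested mice, labelled RT, lack Tet2 (Tet2-/-), the gene of an enzyme of DNA demethylation, and carry G17V RHOA, a mutant form of a small GTPase; the other mice were wild type (WT). There were 3 RT libraries (RT1 to RT3) and 4 WT libraries (WT1 to WT4), each described as a separate mouse. The sources used here do not give the age of the mice, the promoter that drives G17V RHOA or the cells in which Tet2 was removed. The genes were chosen as 30 symbols of known type I and type II interferon-stimulated genes, and all 30 were found among the 19589 genes of the deposited table.

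Type I interferons bind the receptor made of Ifnar1 and Ifnar2 and signal through JAK kinases to a complex that holds Stat2 and Irf9. That complex binds the interferon-stimulated response element (ISRE) in the promoters of its target genes. Interferon-gamma, a product of activated T cells themselves, acts through its own receptor and JAK kinases at gamma-activated sites (GAS). In CD4+ T cells these pathways set antiviral defence and also shape differentiation.

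Depth split the libraries into 2 sets. The reads behind the values, worked out from the steps between the RPKM values (reads scaled to gene length and library total), were 18566233 to 21800352 in RT1, WT1 and WT2, called deep here. They were 105763 to 121659 in RT2, RT3, WT3 and WT4, called shallow. One recovered read was worth 0.0874 to 0.108 reads per 1000000 recovered reads (RPM) in a deep library and 8.99 to 10.4 RPM in a shallow one. A count of 0 allows up to 0.262 to 0.325 RPM in a deep library and 27.0 to 31.2 RPM in a shallow one, if 3 reads are taken as the limit and only counting error is covered. Tet2 had 5.03 RPKM in RT1, 0.803 in RT2 and 0 in RT3, against 2.79 to 6.32 RPKM in the WT libraries. These are levels over the entire gene, which cannot reveal a missing exon, so they are no check of the labels.

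Markers of cells other than CD4+ T cells also moved with the libraries. All 9 CD4+ T cell markers were above 0 in every library, at a summed level of 3990, 9789 and 8570 RPM in RT1 to RT3 against 4756, 4826, 5662 and 5360 RPM in WT1 to WT4. Thy1, a surface glycoprotein of T cells, was at 46.0, 488 and 297 RPM in RT1 to RT3 against 401 to 539 RPM in the WT libraries. The 8 B cell markers summed to 265, 72.7 and 71.9 RPM in RT1 to RT3 against 219, 170, 1249 and 1384 RPM in WT1 to WT4, and 5 of the 8 were at 0 in RT2. The 7 monocyte and macrophage markers summed to 2216, 270 and 387 RPM in RT1 to RT3 against 733, 494, 1163 and 1087 RPM in WT1 to WT4. The 9 markers of plasmacytoid dendritic cells, which make type I interferon and which include Bst2, itself one of the 30 genes, summed to 241, 146 and 144 RPM in RT1 to RT3 against 248, 175, 562 and 427 RPM in WT1 to WT4. Siglech, which defines those cells, was at 0 in all 3 RT libraries and at 11.3, 8.60, 95.3 and 46.4 RPM in WT1 to WT4. Xist, which females transcribe from the inactive X chromosome, had 33298, 69 and 1 reads in RT1 to RT3 against 20969, 12826, 0 and 0 in WT1 to WT4, so both shallow WT libraries and RT3 read as male. In bulk RNA, fewer cells of a type and less RNA per cell cannot be told apart, and the part of these cells in the results on interferon-stimulated genes was not tested.

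**Figure D1:**
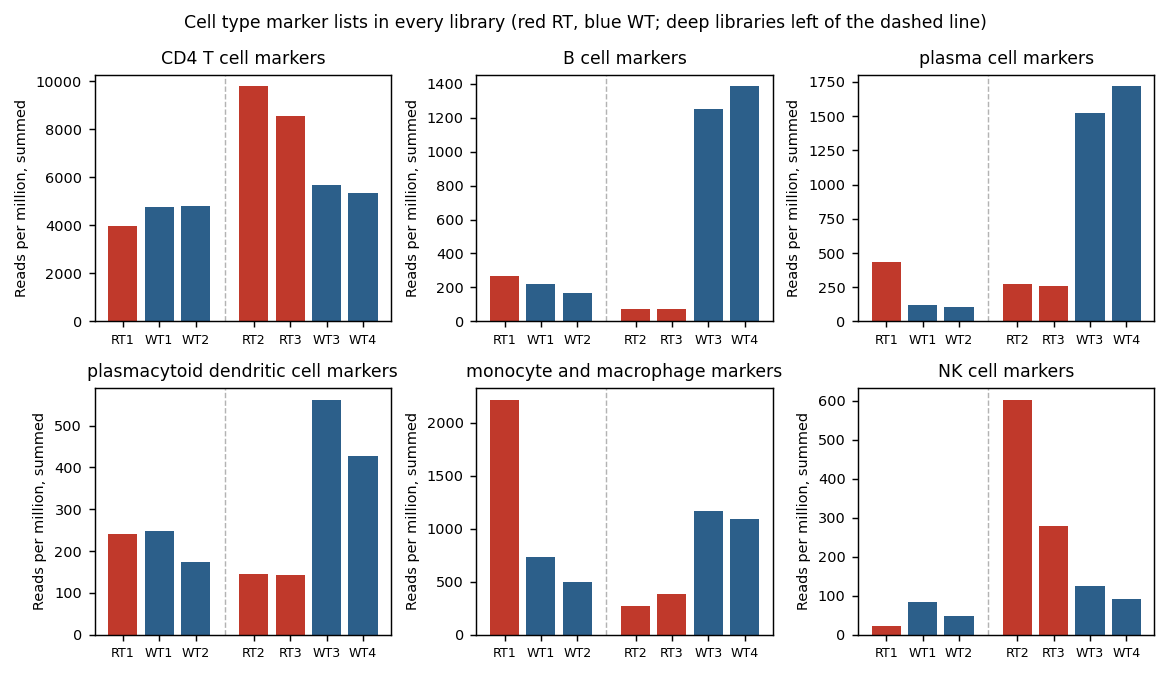
Summed level (reads per 1000000 recovered reads, vertical axes) of 6 cell type marker lists in each library, with RT in red, WT in blue and the deep libraries left of the dashed line. Monocyte and macrophage markers were highest in RT1, at 2216 RPM, and B cell markers in WT3 and WT4, at 1249 and 1384 RPM.

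The 30 interferon-stimulated genes together held between 1525 and 2141 RPM in every library. Their sum was 1706, 2141 and 2032 RPM in RT1 to RT3, against 1577, 1851, 1525 and 1626 RPM in WT1 to WT4. RT1 lay between the 2 deep WT libraries, and RT2 and RT3 lay above the shallow ones. Without Ifi27l2a the sums were 1534, 1715 and 1637 RPM in RT1 to RT3, against 1490, 1691, 1439 and 1551 RPM in WT1 to WT4, with the same order within each set. Per length, and ordered by the mean of WT1 and WT2, the highest levels were those of Ifi27l2a, Irf1, Igtp and Gbp2, at 195, 39.1, 26.4 and 15.7 RPKM in RT1 and at 140, 39.1, 36.7 and 23.1 RPKM as the mean of WT1 and WT2. The lowest by that mean were Rsad2, Mx2 and Ifi44, at 2.70, 0.698 and 0.659 RPKM in RT1 and at 0.513, 0.304 and 0.161 RPKM as the mean of WT1 and WT2. The order in RT1 differed in part: Irf7, at 16.4 RPKM in RT1, lay above Gbp2 there, and Rsad2 lay above Oasl1 and Usp18, at 0.95 and 1.07 RPKM in RT1.

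**Figure D2:**
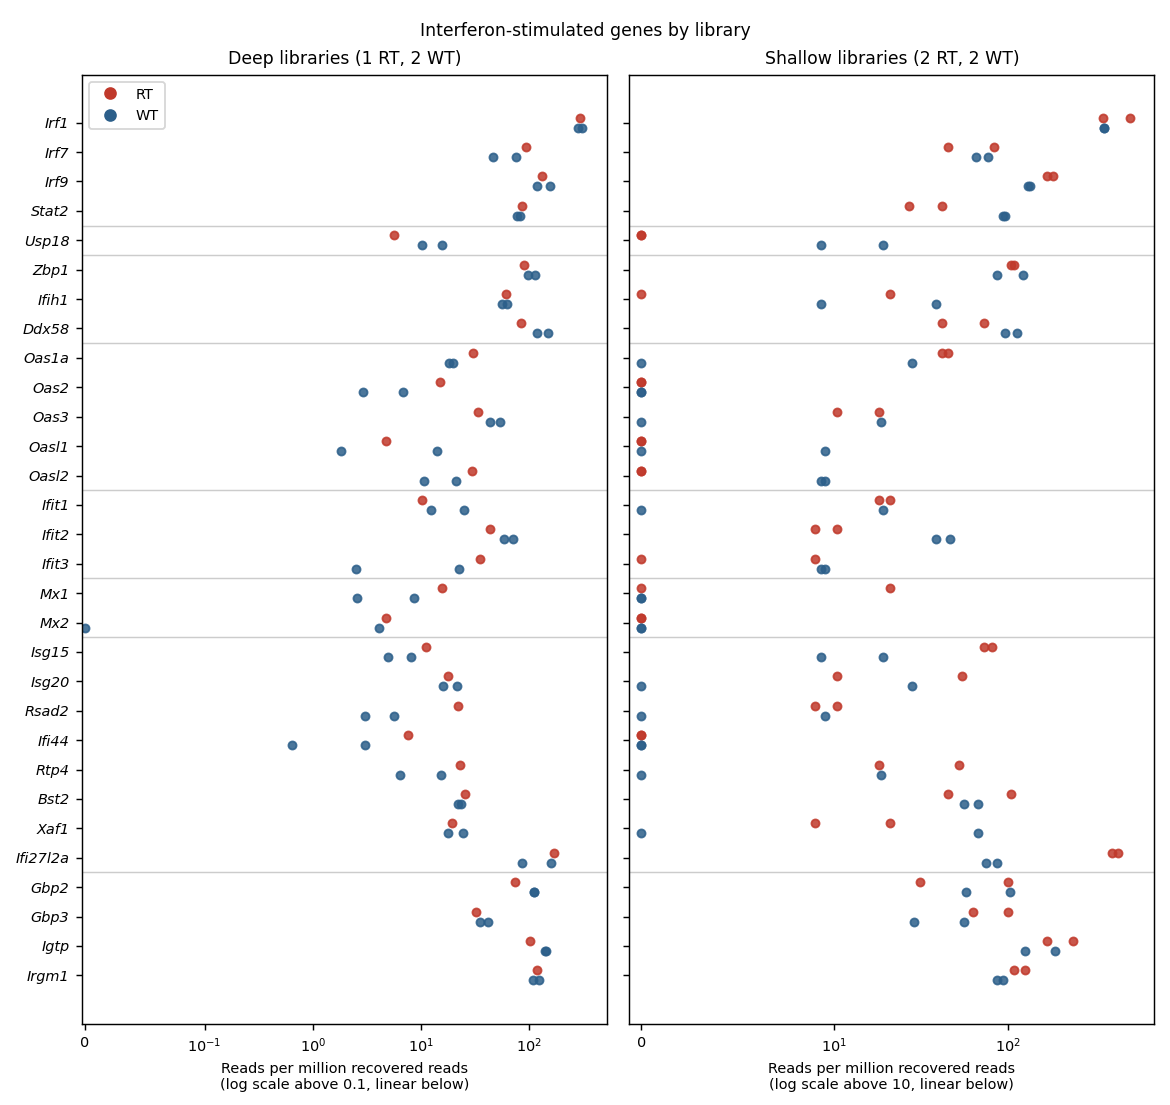
Level of each of the 30 genes (rows, grouped by role) in reads per 1000000 recovered reads, in the deep libraries (left) and the shallow ones (right), with RT in red and WT in blue. Ifi27l2a stands at 426 and 396 RPM in RT2 and RT3, apart from 85.8 and 74.3 RPM in WT3 and WT4. Rows of the right panel in which the groups overlap include Mx2, Oas2 and Ifi44. These had 0 reads in every shallow library, so the overlap there is a tie at 0.

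The question was whether RT and WT cells differed in the interferon programme. The first test fitted log2(RPKM + 1) with limma over 9605 genes, with genotype and library set as terms. It called 0 of 26 tested members higher and 0 lower at an adjusted p of 0.05, where 0.219% of all genes were called higher and 0.0521% lower. Without adjustment, p was under 0.05 for 2 members that were higher (Isg15 and Ifi27l2a) and 2 that were lower (Usp18 and Ifit2), where 7.04% of all genes were higher and 5.97% lower at that limit, near the members' own share. The median log2 fold change of RT over WT was 0.18 over the members and -0.03 over all genes, with 16 members positive and 10 negative. The 4 members not tested, Mx2, Oas2, Oasl1 and Ifi44, were under 1 RPKM in too many libraries.

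Whole reads recovered from the same values, fitted with limma voom and the same terms over 5875 genes, weigh each library by its depth. They called 0 of 17 tested members higher and 1 lower, where 9.38% of all genes were called higher and 7.73% lower. The member was Ddx58. The median was 0.01 over the members and -0.02 over all genes. The other 13 members had fewer than 10 reads over the 4 shallow libraries. With the 10 reads counted over all 7 libraries instead, all 30 members were tested among 13183 genes, and 1 was called higher, Rsad2, and 0 lower. Of all genes 6.05% were called higher and 3.5% lower in that fit, and the member median was 0.03 against 0.09. Counts of 0 or 1 among so few members lie near the shares of all genes and say nothing about the members as a set.

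**Figure D3:**
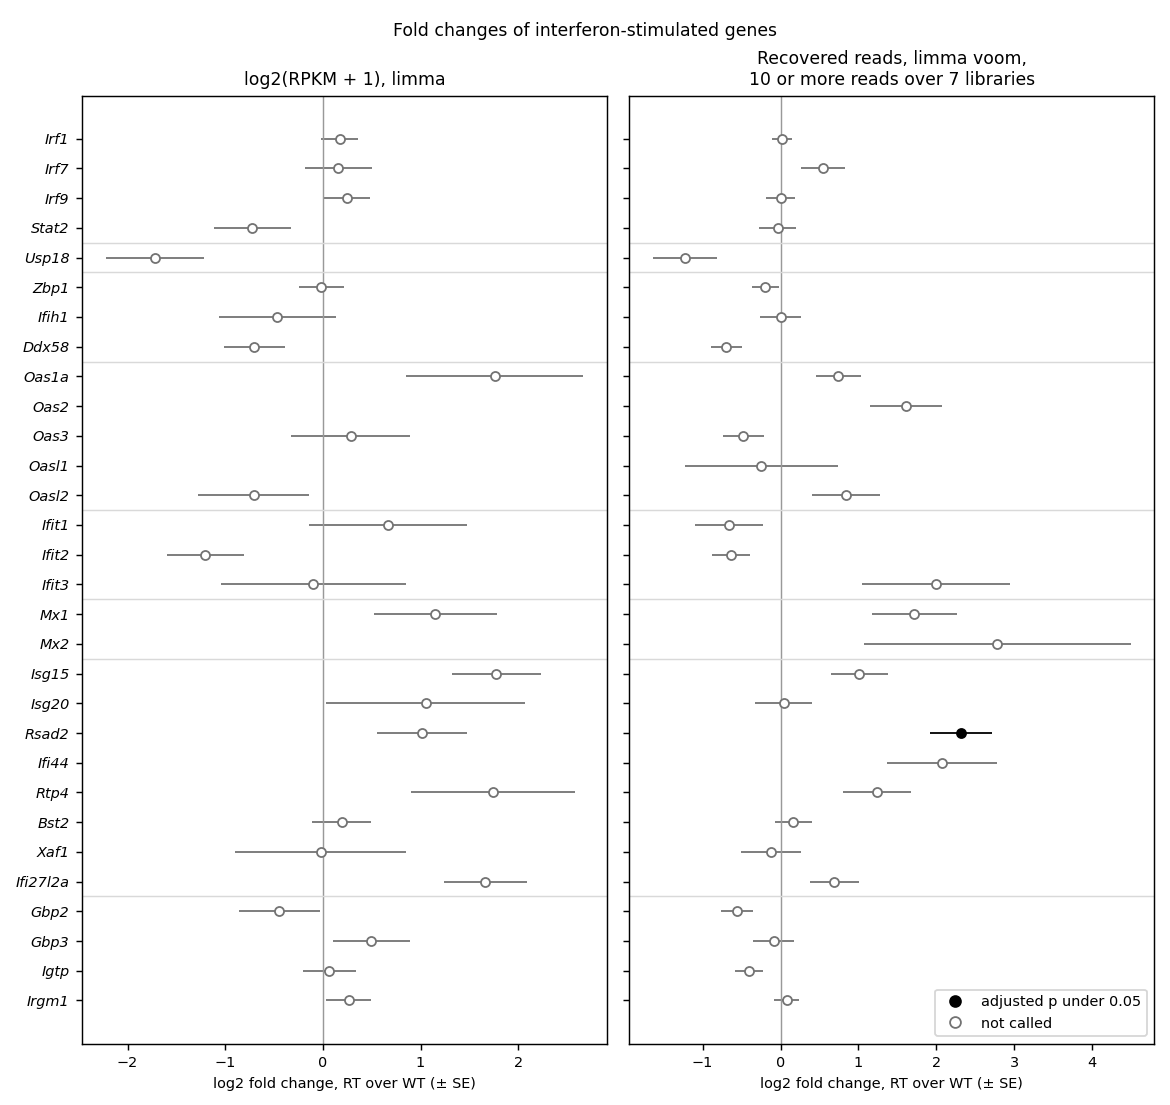
Log2 fold change of RT over WT with its standard error (horizontal axes) for the 30 genes, from log2(RPKM + 1) with limma (left, 26 genes) and from recovered reads with limma voom and 10 or more reads over all 7 libraries (right). Only Rsad2, on the right at 2.32 ± 0.40, is filled as called, and the points lie on both sides of 0.

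Single members lay on different sides of WT. In the deep libraries RT1 lay above both WT libraries for 14 members, below both for 9 and between them for 7. A single library lies outside a pair often, and of all genes with 10 or more reads 42.1% lay above and 30.8% below. RT lay above WT in both library sets for 3 members (Isg15, Oas1a and Ifi27l2a) and below in both for 3 (Ifit2, Usp18 and Ddx58), against 7.35% and 8.06% of all genes. Ifit3, Oasl2 and Stat2 were above in the deep and below in the shallow libraries, and Gbp3 was below in the deep and above in the shallow ones. For Ifit3 and Oasl2 the shallow order rests on 0 or 1 reads a library. RT3 and WT4 held 1 read each of Ifit3, so their order follows from the library totals alone. Every RT library lay above every WT library for Oas1a and Ifi27l2a, and below every one for Usp18 and Ddx58, against 3.6% and 3.43% of all genes. A test of the difference in the genotype effect between the sets (limma voom interaction) called 66 of 5875 genes and 0 of 17 members, with 0 members at an unadjusted p under 0.05.

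Promoters are shown for the genes whose reads gave the smallest p in each direction and held an ISRE match, and for Rsad2, which was added after its value was seen. The sequences are RefSeq promoters on GRCm38.p6 (the build also called mm10), from 250 bases before to 50 bases after the start site, given 5′ to 3′ on the gene's strand. Capitals mark matches, on either strand, to the core of the ISRE, taken as GAAA, any 2 bases and GAAA again. Isg15 encodes a ubiquitin-like protein that is joined to other proteins in infected cells, and its 3 overlapping matches begin at positions -78, -72 and -66 from the start site (chr4:156200769-156201068, minus strand). Oas1a encodes a 2′-5′-oligoadenylate synthetase, and its 2 overlapping matches begin at -20 and -14 (chr5:120907476-120907775, minus strand). Rsad2 encodes viperin, which makes a chain-ending nucleotide, with a match at -120 (chr12:26456403-26456702, minus strand). Ddx58 encodes the RNA sensor RIG-I, with a match at 2 bases past the start site (chr4:40239776-40240075, minus strand), and Gbp2 a guanylate-binding protein, with a match at -59 (chr3:142620413-142620712, plus strand).
Isg15: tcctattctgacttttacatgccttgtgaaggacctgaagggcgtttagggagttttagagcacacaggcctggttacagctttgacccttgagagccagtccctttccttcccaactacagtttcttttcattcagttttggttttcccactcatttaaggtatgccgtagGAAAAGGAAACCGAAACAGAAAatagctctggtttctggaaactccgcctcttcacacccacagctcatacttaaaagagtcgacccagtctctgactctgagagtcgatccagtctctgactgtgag
Oas1a: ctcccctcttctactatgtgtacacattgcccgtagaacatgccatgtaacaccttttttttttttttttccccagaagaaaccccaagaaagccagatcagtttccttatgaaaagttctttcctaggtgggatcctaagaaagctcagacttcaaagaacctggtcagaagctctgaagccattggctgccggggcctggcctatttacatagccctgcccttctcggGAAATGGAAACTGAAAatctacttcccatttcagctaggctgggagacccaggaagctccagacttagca
Rsad2: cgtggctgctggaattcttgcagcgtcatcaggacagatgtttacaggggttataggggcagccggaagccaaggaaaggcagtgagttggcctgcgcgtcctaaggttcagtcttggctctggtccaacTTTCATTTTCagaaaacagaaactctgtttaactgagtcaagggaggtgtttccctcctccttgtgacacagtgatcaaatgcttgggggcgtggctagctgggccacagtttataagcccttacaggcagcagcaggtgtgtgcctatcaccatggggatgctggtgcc
Ddx58: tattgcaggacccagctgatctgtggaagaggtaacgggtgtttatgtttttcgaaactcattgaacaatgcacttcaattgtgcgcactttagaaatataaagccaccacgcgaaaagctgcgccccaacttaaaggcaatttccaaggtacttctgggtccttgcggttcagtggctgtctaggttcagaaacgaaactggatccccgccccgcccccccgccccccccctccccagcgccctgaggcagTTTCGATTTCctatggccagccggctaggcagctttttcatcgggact
Gbp2: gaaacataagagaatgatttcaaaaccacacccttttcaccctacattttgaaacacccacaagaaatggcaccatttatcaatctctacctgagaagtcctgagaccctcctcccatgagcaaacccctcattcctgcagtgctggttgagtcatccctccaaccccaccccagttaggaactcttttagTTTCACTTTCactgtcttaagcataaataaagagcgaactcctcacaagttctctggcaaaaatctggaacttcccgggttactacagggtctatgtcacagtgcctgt
Of these 5 genes, Isg15, Oas1a and Rsad2 lay above both WT libraries in RT1, and Ddx58 and Gbp2 lay below both.

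Of the 30 genes, 23 had a promoter in the RefSeq table, with 29 promoters in all. The ISRE core stood in 14 of those 29 (48.3%), as against 1131 of 32851 promoters of the same length (3.44%). The GAS motif, taken as TTC, any 3 bases and GAA, stood in 6 of the 29 (20.7%), as against 8.30% of all. The letters of the 2 motifs were searched on both strands, and a match is not a measured binding site. Irf7 and Ifit2, which the same rule takes, held no ISRE match in the window. Mx1, Mx2, Oas2, Usp18, Rtp4, Zbp1 and Ifi27l2a had no entry.

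Of the 4 transcription factors that carry the signal, 0 were called by limma or limma voom on all 7 libraries. Of all genes limma called 0.219% higher and 0.0521% lower, and limma voom with the shallow filter 9.38% and 7.73%. At an unadjusted p under 0.05 there were 0 of the 4. Of all genes 7.04% were higher and 5.97% lower at that limit by limma, and 16.1% and 15.0% by limma voom. With 4 genes, a count of 0 does not show that they were unchanged. Irf1, an early target of interferon-gamma, stood at 297, 499 and 351 RPM in RT1 to RT3, against 313, 287, 353 and 353 RPM in WT1 to WT4. The groups overlapped, and the log2 fold change was 0.17 ± 0.19 in RPKM and 0.04 ± 0.14 in reads. Irf9, the DNA-binding subunit of the type I complex, stood at 134, 166 and 180 RPM in RT1 to RT3, against 119, 157, 133 and 130 RPM in WT1 to WT4. Its reads gave a log2 fold change of 0.01 ± 0.18. A stretch of 123 bases of Irf9 overlaps Rnf31 on the same strand, so some reads could belong to either. Stat2, the other subunit, stood at 87.1, 41.6 and 27.0 RPM in RT1 to RT3, against 77.5, 82.9, 95.3 and 92.9 RPM in WT1 to WT4. It was highest of the deep libraries in RT1 and lowest of all in RT2 and RT3, and the difference between the sets was -1.49 on the log2 scale (limma voom interaction, adjusted p = 0.584).

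Irf7, which amplifies the type I response, stood at 94.3, 83.1 and 45.0 RPM in RT1 to RT3, against 47.0, 76.8, 76.3 and 65.0 RPM in WT1 to WT4. RT1 was the highest library and RT3 the lowest. Its log2 fold change was 0.60 ± 0.26 in the recovered reads (limma voom adjusted p = 0.163). Without WT2 it was 0.92, called higher at a limma voom adjusted p of 0.011. Usp18, the protease that removes Isg15 and damps signalling at the type I receptor, stood at 5.68, 0 and 0 RPM in RT1 to RT3, against 10.2, 15.7, 19.1 and 9.29 RPM in WT1 to WT4. Every RT library was below every WT one, and the log2 fold change in RPKM was -1.72 ± 0.50 (limma adjusted p = 0.214). The values in WT3 and WT4 rest on 2 and 1 reads, so the zeros in RT2 and RT3 lie within the limit of their depth. Over all libraries' reads it was -1.23 ± 0.41, uncalled (limma voom adjusted p = 0.0946), and without WT1 it was -1.51, called lower (limma voom adjusted p = 0.0276).

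Of the 3 sensors of foreign nucleic acid, Ddx58 was lower in RT. It stood at 83.8, 41.6 and 71.9 RPM in RT1 to RT3 (959, 4 and 8 reads), against 118, 152, 95.3 and 111 RPM in WT1 to WT4 (1091, 1639, 10 and 12 reads). Every RT library was below every WT library. In the shallow set the counting intervals (95%, exact Poisson) overlapped, at 11.3 to 106 and 31.1 to 142 RPM in RT2 and RT3. Those of WT3 and WT4 were 45.7 to 175 and 57.6 to 195 RPM. Ddx58 lies on chromosome 4, from 40203773 to 40239828 (mm10, minus strand). It fell by 0.69 ± 0.18 on the log2 scale in the recovered reads (SE, limma voom adjusted p = 0.0365), and was at -0.70 ± 0.31, uncalled, in RPKM (limma adjusted p = 0.402). The call was lost without RT1 (-0.83, limma voom adjusted p = 0.855), RT3 (0.0768), WT3 (0.0692) or WT4 (0.0748), and with all libraries counted in the filter (0.0694). Without RT1 no gene of 5875 was called. The estimate stayed between -0.85 and -0.52 when any single library was left out, and was -0.68 in the deep libraries alone and -0.83 in the shallow ones.

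Ifih1, which encodes the related RNA sensor MDA5, stood at 62.1, 20.8 and 0 RPM in RT1 to RT3, against 63.3, 56.3, 38.1 and 9.29 RPM in WT1 to WT4. The groups overlapped in both sets, with a log2 fold change of -0.47 ± 0.60 in RPKM. Zbp1, a sensor of Z-form nucleic acid that can start cell death, stood at 90.4, 104 and 108 RPM in RT1 to RT3, against 97.6, 113, 85.8 and 121 RPM in WT1 to WT4. For Zbp1 RT1 lay below both deep WT libraries and the groups overlapped in the shallow set, with a log2 fold change of -0.20 ± 0.16 in the reads.

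The oligoadenylate synthetases, which make the signal that activates RNase L, split. Oas1a stood at 30.2, 41.6 and 45.0 RPM in RT1 to RT3, against 18.4, 20.1, 0 and 27.9 RPM in WT1 to WT4. Every RT library was above every WT library, by 0.70 ± 0.23 on the log2 scale in the reads, which did not pass (limma voom adjusted p = 0.0682). The shallow values rest on 4 and 5 reads in RT2 and RT3, against 0 and 3 in WT3 and WT4. Reads of Oas1a and its near-identical neighbour Oas1g could be split between them. Oas1g held 13, 0 and 0 reads in RT1 to RT3, against 0, 0, 3 and 0 in WT1 to WT4. Oas2 stood at 15.1 RPM in RT1, against 2.92 and 6.85 RPM in WT1 and WT2, with 0 reads in every shallow library. On the log2 scale the fold change was 1.61 ± 0.46 over all libraries' reads (limma voom adjusted p = 0.0687), and 2.12, called higher, without WT2 (limma voom adjusted p = 0.0336).

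Oas3 stood at 33.6, 10.4 and 18.0 RPM in RT1 to RT3, against 43.6, 53.6, 0 and 18.6 RPM in WT1 to WT4, with RT1 below both deep WT libraries. Oasl1, an inhibitor of Irf7 translation, stood at 4.72, 0 and 0 RPM in RT1 to RT3, against 1.84, 14.1, 9.53 and 0 RPM in WT1 to WT4. Oasl2 stood at 29.5, 0 and 0 RPM in RT1 to RT3, against 10.6, 21.4, 9.53 and 9.29 RPM in WT1 to WT4. None of the 3 was called in the fits on all 7 libraries, and their shallow values rest on 2 reads or fewer a library. Without WT1, Oasl1 was called lower over all libraries' reads (-1.49, limma voom adjusted p = 0.0396).

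The IFIT proteins, which bind viral RNA, also split. Ifit2 stood at 44.1, 10.4 and 8.99 RPM in RT1 to RT3, against 58.4, 72.1, 38.1 and 46.4 RPM in WT1 to WT4. RT lay below WT in both sets. The log2 fold change in the reads was -0.60 ± 0.20, uncalled (limma voom adjusted p = 0.0747), and -0.75, called lower, when WT1 was left out (limma voom adjusted p = 0.0269). Ifit1 stood at 10.3, 20.8 and 18.0 RPM in RT1 to RT3, against 12.6, 25.2, 19.1 and 0 RPM in WT1 to WT4, and the groups overlapped in the shallow set. Ifit3 stood at 35.6, 0 and 8.99 RPM in RT1 to RT3, against 2.49, 22.6, 9.53 and 9.29 RPM in WT1 to WT4. The 2 deep WT libraries thus differed more from each other in Ifit3 than RT1 did from WT2. The shallow values of Ifit3 rest on 0 and 1 reads in RT2 and RT3, against 1 and 1 in WT3 and WT4. The near-identical Ifit3b held 27, 4 and 0 reads in RT1 to RT3, against 58, 94, 0 and 0 in WT1 to WT4, so the split between the pair is uncertain.

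The MX proteins are dynamin-like GTPases that trap viral particles. Mx1 stood at 15.6, 20.8 and 0 RPM in RT1 to RT3, against 8.66, 2.59, 0 and 0 RPM in WT1 to WT4. RT1 was above both deep WT libraries and the shallow values rest on 2 reads in RT2 alone, with a log2 fold change of 1.15 ± 0.63 in RPKM (limma adjusted p = 0.484). Over all libraries' reads it was 1.72 ± 0.55 (limma voom adjusted p = 0.0863), and 2.40, called higher, without WT1 (0.0375). Mx2 stood at 4.81 RPM in RT1, against 0 and 4.07 RPM in WT1 and WT2, and had 0 reads in every shallow library.

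Among the other antiviral effectors, Ifi27l2a, a small membrane protein and the most abundant of the 30 genes per length in the deep libraries, stood furthest apart in the shallow libraries. It lies on chromosome 12, from 103442167 to 103443680 (mm10, minus strand). It stood at 172, 426 and 396 RPM in RT1 to RT3 (1968, 41 and 44 reads), against 87.3, 159, 85.8 and 74.3 RPM in WT1 to WT4 (807, 1722, 9 and 8 reads). Every RT library was above every WT library, although RT1 and WT2 lay close. The means were 604 ± 356 RPKM in RT and 146 ± 39.2 RPKM in WT (SD, n = 3 and 4). These pool deep and shallow libraries, whose RPKM summed over all genes to 133044 to 152578 and to 326187 to 366023. The means and SDs thus also carry the mix of library sets, with 195 RPKM in RT1 against 837 and 781 RPKM in RT2 and RT3. Counting intervals (95%, exact Poisson) ran from 306 to 578 RPM in RT2 and from 287 to 531 in RT3, against 39.2 to 163 in WT3 and 32.1 to 146 in WT4.

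The shallow libraries alone gave Ifi27l2a a log2 fold change of 2.30 ± 0.42 (SE), called higher at a limma voom adjusted p of 2.04e-05, where 3.37% of all genes were called higher and 4.7% lower. The deep libraries alone gave 0.53 ± 0.32, uncalled, where 5.84% were called higher and 2.93% lower. All 7 libraries together gave 1.66 ± 0.42 in RPKM (limma adjusted p = 0.173) and 0.71 ± 0.32 in reads (limma voom adjusted p = 0.167). The difference between the sets, 1.76 on the log2 scale, did not pass (limma voom interaction, adjusted p = 0.666). Without WT2, the deep WT library closest to RT1, the reads gave 1.14, called higher (limma voom adjusted p = 0.0053). That fit called 687 of 5875 genes higher and 638 lower. Without RT1 the RPKM fit gave 2.40, called higher (limma adjusted p = 0.0216). It called 109 of 9029 genes higher and 211 lower, against 21 and 5 of 9605 with all libraries. The related Ifi27l2b held 0 reads in every library. In sum, as given above, the B cell markers were lowest and the CD4+ T cell markers highest in RT2 and RT3. Single markers differed: Thy1, Cd5 and Cd28 were not highest there, and the B cell marker Cd79a was not lowest in RT2. The part of these markers in the Ifi27l2a result was not tested.

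Isg15, on chromosome 4 from 156199424 to 156200818 (mm10, minus strand), also stood higher in RT2 and RT3. It had 11.2, 72.7 and 80.9 RPM in RT1 to RT3 (128, 7 and 9 reads), against 4.98, 8.14, 19.1 and 9.29 RPM in WT1 to WT4 (46, 88, 2 and 1 reads). RT was above WT within each set, while RT1 lay below WT3. The log2 fold change was 1.78 ± 0.46 in RPKM (limma adjusted p = 0.176) and 0.89 ± 0.30 in the reads (limma voom adjusted p = 0.0757). It was called higher in RPKM without RT1 (2.49, limma adjusted p = 0.0406) and in the reads without WT2 (1.29, limma voom adjusted p = 0.0151). The all-gene counts of these settings are those given for Ifi27l2a above. The counting intervals ran from 29.2 to 150 RPM in RT2 and from 37.0 to 154 in RT3, against 2.31 to 68.9 in WT3 and 0.235 to 51.8 in WT4, and overlapped.

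Rsad2, on chromosome 12 from 26442746 to 26456452 (mm10, minus strand), was set apart in the deep libraries. It stood at 22.3, 10.4 and 8.99 RPM in RT1 to RT3 (255, 1 and 1 reads), against 5.63, 3.05, 9.53 and 0 RPM in WT1 to WT4 (52, 33, 1 and 0 reads). RT1 was above both deep WT libraries, and the shallow libraries held 1 read or none each. With the filter over all libraries it rose by 2.32 ± 0.40 on the log2 scale (SE, limma voom adjusted p = 0.0135). Without RT1 the same fit gave 0.83 ± 1.40, uncalled (limma voom adjusted p = 0.998), in a setting that called 0 of 13183 genes. Without any other single library it gave 1.84 to 2.60, called in each. The deep libraries alone, where RT1 is the only RT library, gave 2.47 ± 0.53 in this filter. Monocyte and macrophage markers were also highest in RT1 in sum (2216 RPM). Of the 7, 6 had a positive log2 fold change in this filter over all 7 libraries. Ly6c2 went the other way, at 2.53 RPM in RT1 against 12.4 to 105 RPM in the WT libraries. The part of these markers in the Rsad2 result was not tested.

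**Figure D4:**
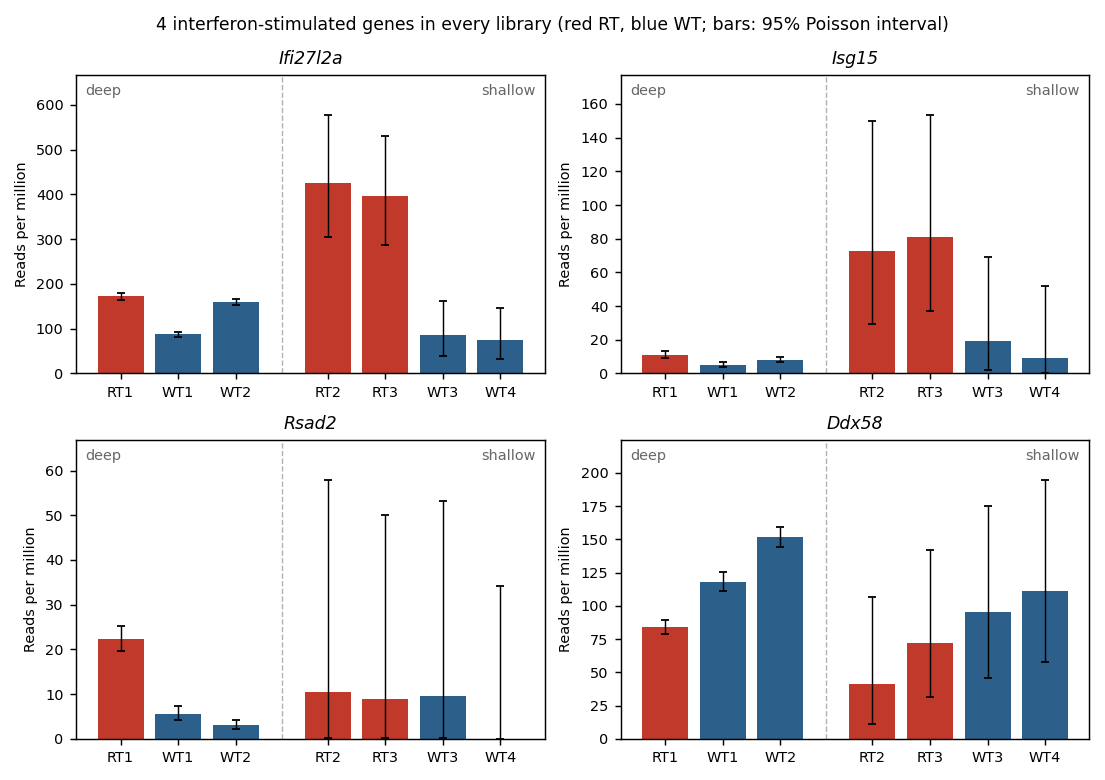
Reads per 1000000 recovered reads (vertical axes) of Ifi27l2a, Isg15, Rsad2 and Ddx58 in each library, RT in red and WT in blue, with 95% exact Poisson intervals of the reads as bars and the deep libraries left of the dashed line. Ifi27l2a separates RT2 and RT3 (426 and 396 RPM) from WT3 and WT4 (85.8 and 74.3 RPM), and Rsad2 separates RT1 from WT1 and WT2. Ddx58 is lower in every RT library, with overlapping intervals in the shallow set.

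The remaining effectors were uncalled in the 3 fits on all 7 libraries. Rtp4, a chaperone for receptors, stood at 23.3, 52.0 and 18.0 RPM in RT1 to RT3, against 6.39, 15.4, 0 and 18.6 RPM in WT1 to WT4. Of the RT libraries only RT3 lay under a WT library, WT4, and the log2 fold change was 1.74 ± 0.84 in RPKM (limma adjusted p = 0.433). Over all libraries' reads and without WT2 it was 1.84, called higher (limma voom adjusted p = 0.0453). Rtp4 overlaps 525 bases of Masp1 on the other strand. Ifi44 stood at 7.69 RPM in RT1, against 0.649 and 3.05 RPM in WT1 and WT2, with 0 reads in every shallow library. On the log2 scale the fold change was 2.08 ± 0.71 over all libraries' reads (limma voom adjusted p = 0.1).

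Isg20, an exonuclease, stood at 17.9, 10.4 and 54.0 RPM in RT1 to RT3, against 16.0, 21.6, 0 and 27.9 RPM in WT1 to WT4. Bst2, which encodes tetherin, a protein that holds budding virus at the cell surface, stood at 25.7, 104 and 45.0 RPM in RT1 to RT3, against 22, 23.8, 66.7 and 55.7 RPM in WT1 to WT4. Xaf1, a promoter of cell death, stood at 19.3, 20.8 and 8.99 RPM in RT1 to RT3, against 17.9, 24.8, 66.7 and 0 RPM in WT1 to WT4. The groups overlapped for Isg20 and Xaf1 in both sets and for Bst2 in the shallow set, and their log2 fold changes in the reads were -0.01 ± 0.28, -0.12 ± 0.30 and 0.16 ± 0.19 for Isg20, Xaf1 and Bst2.

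The GTPases best known as targets of interferon-gamma, which attack vacuoles that hold parasites, were lower in sum in RT1 than in both deep WT libraries and overlapped in the shallow ones. They summed to 330, 384 and 540 RPM in RT1 to RT3, against 411, 408, 295 and 437 RPM in WT1 to WT4. Gbp2 stood at 75.2, 31.2 and 98.9 RPM in RT1 to RT3, against 111, 113, 57.2 and 102 RPM in WT1 to WT4. RT1 was below both deep WT libraries, and the log2 fold change in the reads was -0.56 ± 0.17 (limma voom adjusted p = 0.0574). Igtp stood at 102, 166 and 234 RPM in RT1 to RT3, against 141, 145, 124 and 186 RPM in WT1 to WT4, with a log2 fold change of -0.38 ± 0.18 in the reads (limma voom adjusted p = 0.181). Irgm2 overlaps 7974 bases of Igtp on the same strand, so their reads cannot be fully told apart.

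Gbp3 stood at 32.7, 62.4 and 98.9 RPM in RT1 to RT3, against 35.4, 41.9, 28.6 and 55.7 RPM in WT1 to WT4, below both WT libraries in the deep set and above both in the shallow set. Irgm1, which controls the other members of its family, stood at 120, 125 and 108 RPM in RT1 to RT3, against 124, 109, 85.8 and 92.9 RPM in WT1 to WT4. The log2 fold changes in the reads were -0.17 ± 0.21 for Gbp3 and 0.07 ± 0.15 for Irgm1, and neither passed.

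The rest of the pathway was read from lists of its genes in the recovered reads. There Ifnar1 was called lower and the inhibitors Ptpn1 and Socs1 were called higher in RT. In RPKM these genes were uncalled (limma adjusted p = 0.161, 0.0756 and 0.147). With a replicate block in place of library set, the reads left Ifnar1 and Socs1 uncalled (limma voom adjusted p = 0.0866 and 0.171) and Ptpn1 called (0.0425). Of 8 tested receptor and JAK-STAT genes 0 rose and 1 fell, with a median log2 fold change of -0.09, where 9.38% of all genes rose and 7.73% fell. Ifnar1, a chain of the type I receptor, stood at 119, 72.7 and 45.0 RPM in RT1 to RT3, against 211, 199, 200 and 158 RPM in WT1 to WT4. Every RT library was below every WT library, and it fell by 0.83 ± 0.16 (log2, SE; limma voom adjusted p = 0.0109). Without RT1 it was at -1.57, uncalled (limma voom adjusted p = 0.489), in a setting that called no gene of 5875.

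The other chains did not pass. Ifnar2 was at -0.18 ± 0.17 and Ifngr1, the binding chain of the interferon-gamma receptor, at -0.12 ± 0.18 on the log2 scale. Ifngr2 had too few reads for that fit and was at -1.01 ± 0.69 in RPKM (limma adjusted p = 0.571). Of 21 ligand genes Ifng alone was tested, at 22.4, 218 and 71.9 RPM in RT1 to RT3 against 27.9, 9.71, 28.6 and 37.2 RPM in WT1 to WT4. RT2 and RT3 were above every WT library and RT1 was below 3 of the 4. Its log2 fold change was 0.57 ± 0.46, uncalled (limma voom adjusted p = 0.44). It turned with the deep WT library left out, at 1.26, called, without WT1 (limma voom adjusted p = 0.0184) and -0.12, uncalled, without WT2 (limma voom adjusted p = 0.823). The 6 NK cell markers summed to 23.7, 603 and 279 RPM in RT1 to RT3, against 83.4, 47.0, 124 and 92.9 RPM in WT1 to WT4, so RT2 and RT3 were highest in these as in Ifng. In RT2 and RT3 the sum came from Nkg7 and Eomes alone, and Ncr1, which defines NK cells, was at 0 in all 3 RT libraries. The part of these genes' cells in the Ifng values was not tested. Ifnb1 was listed at 0 in every library.

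Of 7 tested negative regulators, 1 of which is Isg15 of the 30 genes, 2 rose and 0 fell, with a median of 0.15. Of all genes 9.38% rose and 7.73% fell, with a median of -0.02. Ptpn1, a phosphatase that acts on JAK kinases, stood at 636, 488 and 576 RPM in RT1 to RT3, against 362, 293, 229 and 251 RPM in WT1 to WT4. Every RT library was above every WT library, and it rose by 1.0 ± 0.14 (log2, SE; limma voom adjusted p = 0.00321). Socs1, an inhibitor of JAK kinases that interferon itself induces, stood at 181, 114 and 71.9 RPM in RT1 to RT3, against 120, 98.2, 19.1 and 27.9 RPM in WT1 to WT4. It rose by 0.78 ± 0.17 (limma voom adjusted p = 0.0196). Without RT1, where no gene of 5875 was called, both were uncalled, at 1.14 for Ptpn1 and 1.76 for Socs1. Without RT3 Socs1 was uncalled at 0.78 (limma voom adjusted p = 0.0531).

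Of 44 tested interferon-stimulated genes outside the 30, 2 rose and 9 fell, with a median of -0.23. Of all genes 9.38% rose and 7.73% fell, with a median of -0.02. Ifi206 and Ifi209, of the family of HIN-200 DNA-binding proteins, fell by 4.47 ± 0.49 and 2.17 ± 0.34 on the log2 scale. Ifi206 stood at 3.93, 41.6 and 0 RPM in RT1 to RT3, against 68.3, 129, 124 and 149 RPM in WT1 to WT4. The genes of this family lie side by side and resemble one another, so the split of their reads is uncertain. Ifi203 of the same family fell by 0.78, the nuclear body gene Sp100 by 0.80, the schlafen gene Slfn1 by 1.26 and the immunity-related GTPase gene Ifi47 by 0.99. The 2 that rose were Lgals3bp, a secreted binding protein of galectins, by 1.68 ± 0.24, and Tor3a, an ATPase, by 1.36 ± 0.36. All were uncalled without RT1, a setting that called no gene of 5875. There Ifi206 was at -3.34, Ifi209 at -2.45 and Tor3a at 1.11, while Ifi47 was at 0.10, Slfn1 at -0.20, Ifi203 at -0.24, Sp100 at -0.30 and Lgals3bp at 0.11. Tor3a was also uncalled without RT3 (limma voom adjusted p = 0.0776) or WT4 (0.072), and its estimate without WT2 was 0.88.

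Of 17 tested genes of MHC class I and the immunoproteasome 0 rose and 0 fell, where 9.38% of all genes rose and 7.73% fell. Of the 17, 15 were positive, with a median of 0.11, against -0.02 over all genes. At an unadjusted p under 0.05, 2 were higher and 0 lower, where 16.1% of all genes were higher and 15.0% lower. They summed to 10649, 26801 and 21195 RPM in RT1 to RT3, against 11409, 11459, 17043 and 16145 RPM in WT1 to WT4, so RT1 was below and RT2 and RT3 above the WT libraries of their set. The shallow libraries alone called 4 of the 17 higher and 0 lower, where 3.37% of all genes were called higher. At an unadjusted p under 0.05 they gave 12 higher and 0 lower, where 8.44% of all genes were higher and 11.1% lower. The deep libraries alone called 0 of the 17, with 10 negative. The CD4+ T cell markers were also highest in RT2 and RT3 in sum, as given above, though Thy1, Cd5 and Cd28 of that list were not. The part of these markers in this result was not tested. Of 12 tested upstream sensing genes 1 rose and 0 fell, where 9.38% of all genes rose and 7.73% fell. The 1 that rose was Tlr9, a receptor for DNA found mainly in B cells and dendritic cells. Tlr9 was at 65.4, 0 and 0 RPM in RT1 to RT3 against 20.6, 11.2, 38.1 and 83.6 RPM in WT1 to WT4. Its log2 fold change was 1.89 ± 0.51 (limma voom adjusted p = 0.0382), and it was -3.68 without RT1, uncalled in a setting that called no gene. In the limma fit on log2(RPKM + 1) 0 members of these lists were called. At an unadjusted p under 0.05 that fit gave 2 higher and 6 lower among the other interferon-stimulated genes, 3 higher and 1 lower among 8 negative regulators, and 3 higher and 0 lower in the MHC class I list, where 7.04% of all genes were higher and 5.97% lower. The negative regulators here include Isg15 (higher) and Usp18 (lower), which are counted among the 30 genes above.

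**Figure D5:**
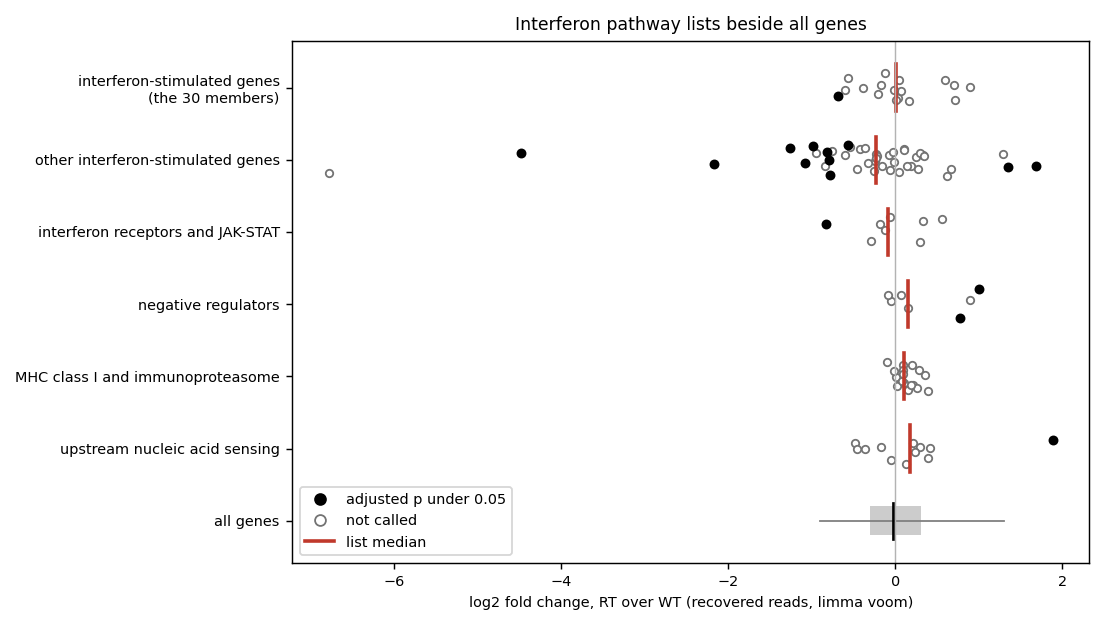
Log2 fold change of RT over WT from recovered reads (horizontal axis) for each tested gene of 6 lists, with called genes filled and list medians in red; the grey bar for all genes spans the quartiles and the line percentiles 5 to 95. The 17 tested genes of the 30 centre at 0.01 and the other interferon-stimulated genes at -0.23.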

How the data were processed

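RNA of sorted CD4+ splenocytes was made into libraries with an Illumina TruSeq v2 kit, per the labels' protocols. The authors deposited RPKM values, 1 column per library, on mm10 according to the submitters' processing notes. The sources used here name no aligner, counter or annotation, nor whether counting used strand. Whole reads were recovered from the RPKM steps: 78.9% to 83.8% of values under 100 reads in a library were whole within 0.01 reads at GENCODE M21 exon lengths, and all 30 members gave whole reads with a single length. The 19432 symbols found in GENCODE M21 took their coordinates from it. Recovered reads were 49.8% to 54.0% of the library total in deep libraries and 88.2% to 91.4% in shallow ones.

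Genes that reached 1 RPKM in 3 or more libraries were tested as log2(RPKM + 1) with limma 3.58.1 in R 4.3.3 (trended prior variance, terms for genotype and library set). Fold changes on this scale understate low genes. Recovered reads were tested with limma voom for genes with 10 or more reads over the shallow libraries, and again over all libraries; trimmed-mean (TMM) scaling served as an alternative. P-values are two-sided, adjusted by Benjamini-Hochberg over all genes tested, with a threshold of 0.05. Alternatives were other pseudocounts (0.1 and 5), no filter, RPKM rescaled to a sum of 1000000, genotype only, a replicate block, each library left out, each set alone, and WT3 and WT4 summed. The fit of the deep libraries with the filter over all libraries, and leaving out libraries in the fit that called Rsad2, were added after seeing the data. With deep libraries alone, RT1 is taken to vary as the WT libraries do. The scripts were tested on simulated data. The members, the other lists and the tests were chosen with earlier results of these data known. Genes outside the 30 were named by rule, as those called in the recovered reads, up to 6 per pathway list and direction with the smallest p (cell type marker lists are not among these), plus Ifng, Ifnb1 and the receptor chains; a gene that the rule takes is not reported here.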

Additional observations from a re-analysis of the deposited data

Results flagged for a closer look

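Among 30 groups of 4 WT libraries, 1 per gene, a library stood far from the others in 2, where chance gives about 1 in 20. For Mx2, on log2(RPKM + 1), the gap between WT2 and the nearest other library was the whole range (ratio 1, above Dixon's 95% limit), since WT1, WT3 and WT4 were at 0. For Ifih1 the gap was 0.914 of the range, and the library apart was WT4, at 1.01 RPKM against 3.72 to 4.12 RPKM in WT1 to WT3. Both gaps compare deep with shallow libraries. The 0 reads of Mx2 in WT3 and WT4 allow up to 28.6 and 27.9 RPM, above the 4.07 RPM of WT2. The Ifih1 values of WT3 and WT4 rest on 4 and 1 reads, and their counting intervals (95%, exact Poisson), 10.4 to 97.6 and 0.235 to 51.8 RPM, overlap, so at this depth WT4 cannot be told apart from WT3.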

How the results depend on the processing

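In the fit on log2(RPKM + 1) the count of members called stayed at 0 higher and 0 lower with pseudocounts of 0.1 and 5, without a filter, after rescaling, and with genotype as the only term, while the recovered reads called 1 lower. Leaving out each library in turn gave 0 to 2 higher and 0 lower, the 2 without RT1, where 109 of 9029 genes were called higher and 211 lower. All-gene counts moved by more than 1.5 times, from 21 higher and 5 lower to 3 and 2 after rescaling, 4 and 0 with a pseudocount of 0.1, 0 and 0 without a filter, 4 and 1 with genotype only, and 551 and 454 in the recovered reads. In the recovered reads the count of 0 higher became 1 with the filter over all libraries, 1 in the shallow libraries alone and 1 with the replicate block. The count of 1 lower became 0 with the filter over all libraries, 0 in either set alone, 0 in the deep libraries with the filter over all libraries, 0 with the replicate block and 0 with WT3 and WT4 summed. With the shallow filter, leaving out each library gave 0 to 3 higher and 0 to 2 lower, and without RT1 no gene of 5875 was called. The 3 came without WT2, where 687 of 5875 genes were called higher and 638 lower. The 2 came without WT1, where 751 were called higher and 508 lower. With the filter over all libraries, leaving out WT2 gave 5 members higher and 0 lower, among 817 and 630 of 13183 genes. Leaving out WT1 in that filter gave 2 higher and 3 lower, among 1067 and 571 genes. All-gene counts were 179 higher and 107 lower with the block, 393 and 314 with WT3 and WT4 summed, 343 and 172 in the deep and 198 and 276 in the shallow libraries. The cause was not tested. Deviations of same-numbered libraries from their group means correlated at 0.432, -0.179 and 0.184 for numbers 1 to 3. Library set was not removed from these deviations, and number 2 joins shallow RT2 with deep WT2. They therefore cannot show whether replicate numbers pair the mice. The block fit held replicate number in place of library set, so it also set shallow RT2 beside deep WT2. It gave 0 members called in RPKM, with a median of 0.40. In the reads it called Ifi27l2a higher (1.24, limma voom adjusted p = 0.0405) and left Ddx58 uncalled (-0.55). Of 597 values of single members under alternatives, 514 kept direction and call, 63 changed sign while uncalled, 9 gained a call and 11 lost one. The shallow depth limits 13 members to fewer than 10 reads over those 4 libraries.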
